A study of Homo sapiens with 6 samples.

Results

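Autosomal genes that were silent in vehicle-treated MDA-MB-231 cells and carried reads in every guadecitabine library were examined. A gene was taken when it lay outside chromosomes X and Y, had at most 1 read in each of vehicle replicates 1 and 2, and reached a CPM of at least 2 (its reads per 1000000 counted reads of the library) in each of the 3 guadecitabine libraries. Genes of the MAGE, PCDH, HOX, KRT, COL and ZNF symbol families and DAZL, DMRTB1, GREM1 and UCHL1 were left out, and vehicle replicate 3 played no part in the choice. This selected 66 of the 17100 genes of the table. Of the 2646 autosomal genes that were silent in vehicle replicates 1 and 2, 74 reached the minimum, or 2.8%, and 8 of these were left out by name. Another 21 genes on chromosomes X and Y met the same limits. The genes were chosen by their reads in 5 of the libraries, so that their low vehicle and high guadecitabine values describe the choice and were not tested.

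MDA-MB-231 is an established human cell line from a breast adenocarcinoma that lacks the hormone receptors and HER2. RNA was sequenced from vehicle-treated cells (3 libraries) and from cells given 1 µM guadecitabine (SGI-110) for 96 h and no drug for the last 24 h before harvest (3 libraries). All libraries came from the same line, so that they share its genetic background, and the study describes them as independent experiments. Of the markers of the line, VIM and CD44 were high in every library, with CPM values from 2987 to 4444 for VIM and from 743 to 2005 for CD44, and ESR1 had at most 1 read outside vehicle replicate 3. SPARC, also listed as a marker of the line, was at 0.916 to 3.32 CPM with vehicle and 169 to 189 CPM with guadecitabine. Of the genes listed as absent, KRT19 had 408 to 973 CPM over all libraries and GATA3 18.9 to 37.8 CPM. EPCAM had 10.2 to 20.9 CPM and CDH1 0.682 to 3.91 CPM.

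Guadecitabine is a dinucleotide that releases decitabine, a cytidine analogue that is built into DNA and traps the DNA methyltransferases, so that methylation is lost as cells divide. Promoters rich in CpG are usually free of methylation and their genes active, but a subset is methylated in the normal body, among them many germline genes, which are expressed in the testis or ovary and silent elsewhere. Cancer cells methylate additional promoters, such as those of developmental transcription factors, and demethylating drugs are known to activate genes of both kinds.

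The DNA before the start site is shown for 5 of the genes, because the group ranged from promoters packed with CpG to promoters almost without it. They were taken from genes whose RefSeq start lay at most 25 bases before and at most 1 base after the start of the counted transcript. The 200 bases that precede the RefSeq start are given 5′ to 3′ on the strand of the gene, found on GRCh37, the assembly equal to hg19, and capitals mark each CpG. RBP4, the plasma carrier of retinol, and NKAPL, a regulator of spermatogenesis, had many CpG for their base composition. They are shown from chr10:95360993-95361192 on the minus strand and chr6:28226875-28227074 on the plus strand.
RBP4: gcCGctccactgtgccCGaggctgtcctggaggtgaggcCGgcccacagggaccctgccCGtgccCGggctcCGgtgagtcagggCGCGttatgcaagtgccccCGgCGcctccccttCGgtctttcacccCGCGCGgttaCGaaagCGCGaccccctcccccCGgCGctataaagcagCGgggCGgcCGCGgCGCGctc
NKAPL: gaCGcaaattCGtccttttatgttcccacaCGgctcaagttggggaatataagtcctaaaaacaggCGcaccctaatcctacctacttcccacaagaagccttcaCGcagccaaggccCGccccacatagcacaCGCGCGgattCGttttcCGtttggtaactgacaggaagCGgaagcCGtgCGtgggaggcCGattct

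FCER1G, the signalling chain shared by several Fc receptors, was among the highest after guadecitabine and is shown from chr1:161184885-161185084 on the plus strand.
FCER1G: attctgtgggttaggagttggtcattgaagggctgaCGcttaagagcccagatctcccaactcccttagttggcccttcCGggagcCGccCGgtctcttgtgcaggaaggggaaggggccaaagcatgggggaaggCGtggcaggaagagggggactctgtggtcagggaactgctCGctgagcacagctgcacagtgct

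CHRNA1, the alpha subunit of the acetylcholine receptor of muscle, and RTP3, a protein that helps taste and odour receptors reach the cell surface, stood at the low end for CpG. They are shown from chr2:175629201-175629400 on the minus strand and chr3:46539266-46539465 on the plus strand.
CHRNA1: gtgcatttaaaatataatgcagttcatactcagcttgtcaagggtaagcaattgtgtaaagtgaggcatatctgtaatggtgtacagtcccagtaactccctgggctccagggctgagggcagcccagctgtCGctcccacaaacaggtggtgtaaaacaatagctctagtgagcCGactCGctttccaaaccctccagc
RTP3: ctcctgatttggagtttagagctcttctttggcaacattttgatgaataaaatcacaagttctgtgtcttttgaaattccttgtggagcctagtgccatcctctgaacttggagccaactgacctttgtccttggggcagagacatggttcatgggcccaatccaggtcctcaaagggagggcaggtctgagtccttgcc

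The 200 bases held 25 CpG at RBP4, 15 at NKAPL, 6 at FCER1G, 3 at CHRNA1 and 0 at RTP3. Genes with and without CpG before the start were thus both present among those switched on.

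Libraries held 17602570 to 22277442 reads for vehicle and 8792127 to 21410849 for guadecitabine, so that a CPM of 2 required 43, 18 and 36 reads in guadecitabine replicates 1, 2 and 3. Vehicle replicate 3 stood apart, with 20 genes at 0 reads against 2498 and 2517 in the other vehicle libraries. It also held reads of genes that define other tissues and that were at 0 in vehicle replicates 1 and 2: 13 reads of CD2, 24 of MS4A1, 11 of ALB, 14 of ZPBP and 43 of PGR. These 5 genes had 0 reads in all guadecitabine libraries, with the exception of ALB, which had 1, 0 and 2.

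The 66 genes together had 15 and 22 reads in vehicle replicates 1 and 2, against 8535, 3379 and 6709 in guadecitabine replicates 1, 2 and 3. In CPM these were 0.763 and 1.25 against 399, 384 and 378. The 3 guadecitabine libraries therefore lay close together although their depths differed. Of the 66 genes, 34 had no read in vehicle replicates 1 and 2, 27 had a single read in one of them and 5 had 1 read in each. In vehicle replicate 3 the 66 genes held 1604 reads, or 72.0 CPM, which lay between the other vehicle libraries and the guadecitabine libraries.

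**Figure D1:**
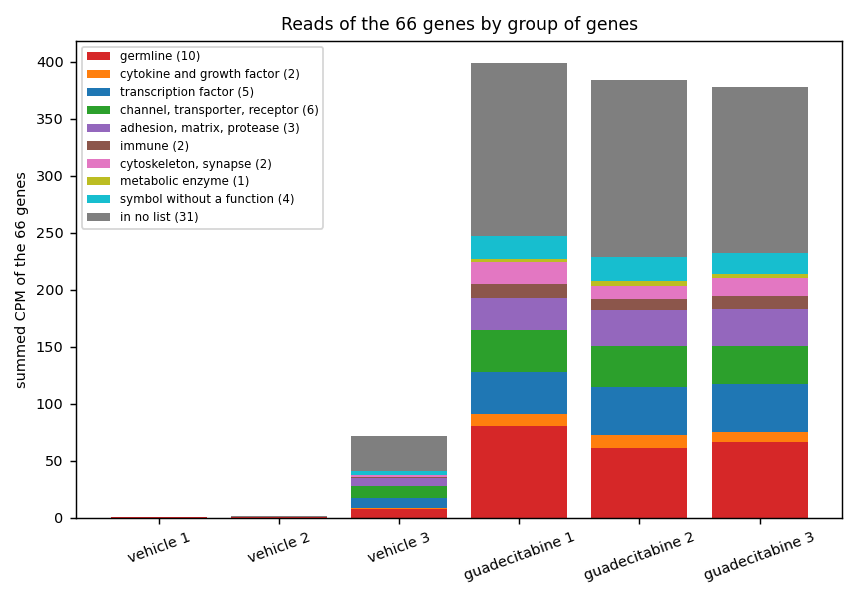
Stacked bars give the summed CPM of the 66 genes in each of the 6 libraries, divided by groups of genes, with the number of genes of each group in brackets. The bars of vehicle replicates 1 and 2 stay at 0.763 and 1.25 CPM, vehicle replicate 3 reaches 72.0 CPM and the guadecitabine libraries reach 378 to 399 CPM.

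To compare levels between genes, reads were scaled by TMM factors to the mean library size and divided by the exon length counted, in kb. On this scale of normalized reads per kb, the mean of the guadecitabine libraries ranged from 6.12 for MEGF10, a receptor for the engulfment of dying cells, to 255 for PPP1R14A, with a median of 37.9. Measured against all genes of the table in the guadecitabine libraries, the 66 genes held percentile ranks from 25.8 to 70.1, with a median of 40.7. The levels reached were therefore low to middling.

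PPP1R14A, an inhibitor of myosin phosphatase, lies on chromosome 19 from 38741877 to 38747231 on the minus strand. It had 0, 0 and 5 reads in vehicle replicates 1, 2 and 3, and 209, 121 and 177 in the guadecitabine libraries. Its level was 255 ± 54.1 normalized reads per kb (SD, n = 3) after guadecitabine. Its mean CPM was 49.8 times that of vehicle replicate 3. With 0 reads in vehicle replicates 1 and 2, the CPM was at least 65.5-fold higher than the floor of 3 reads in a library. This floor, like all counts, covers counting error only, since reads are not independent molecules.

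FCER1G, on chromosome 1 from 161185087 to 161189038 on the plus strand, had 1, 0 and 6 reads with vehicle and 165, 41 and 101 with guadecitabine. Its level was 180 ± 42.9 normalized reads per kb (SD, n = 3). In vehicle replicate 3, PPP1R14A and FCER1G were under the CPM of 2 that the choice required with guadecitabine, so that no overlap was possible. FCER1G is best known from mast cells and other leukocytes. PTPRC, the common leukocyte surface protein, had 3, 0 and 2 reads in the guadecitabine libraries, and CD2 and MS4A1, of T and B cells, had none. The macrophage markers CD14 and CD68 had reads in all 6 libraries. CD14 had 7.44 to 11.5 CPM with vehicle and 9.48 to 10.4 CPM with guadecitabine. CD68 had 156 to 192 CPM with vehicle and 421 to 426 CPM with guadecitabine, a log2 fold change of 1.27 (edgeR, adjusted p = 1.7e-05). Unlike FCER1G, CD68 was not silent with vehicle, at 3071 and 2905 reads in replicates 1 and 2. Of all genes tested, 19.3% were higher. The part of other cell types in the level of FCER1G was not tested.

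**Figure D2:**
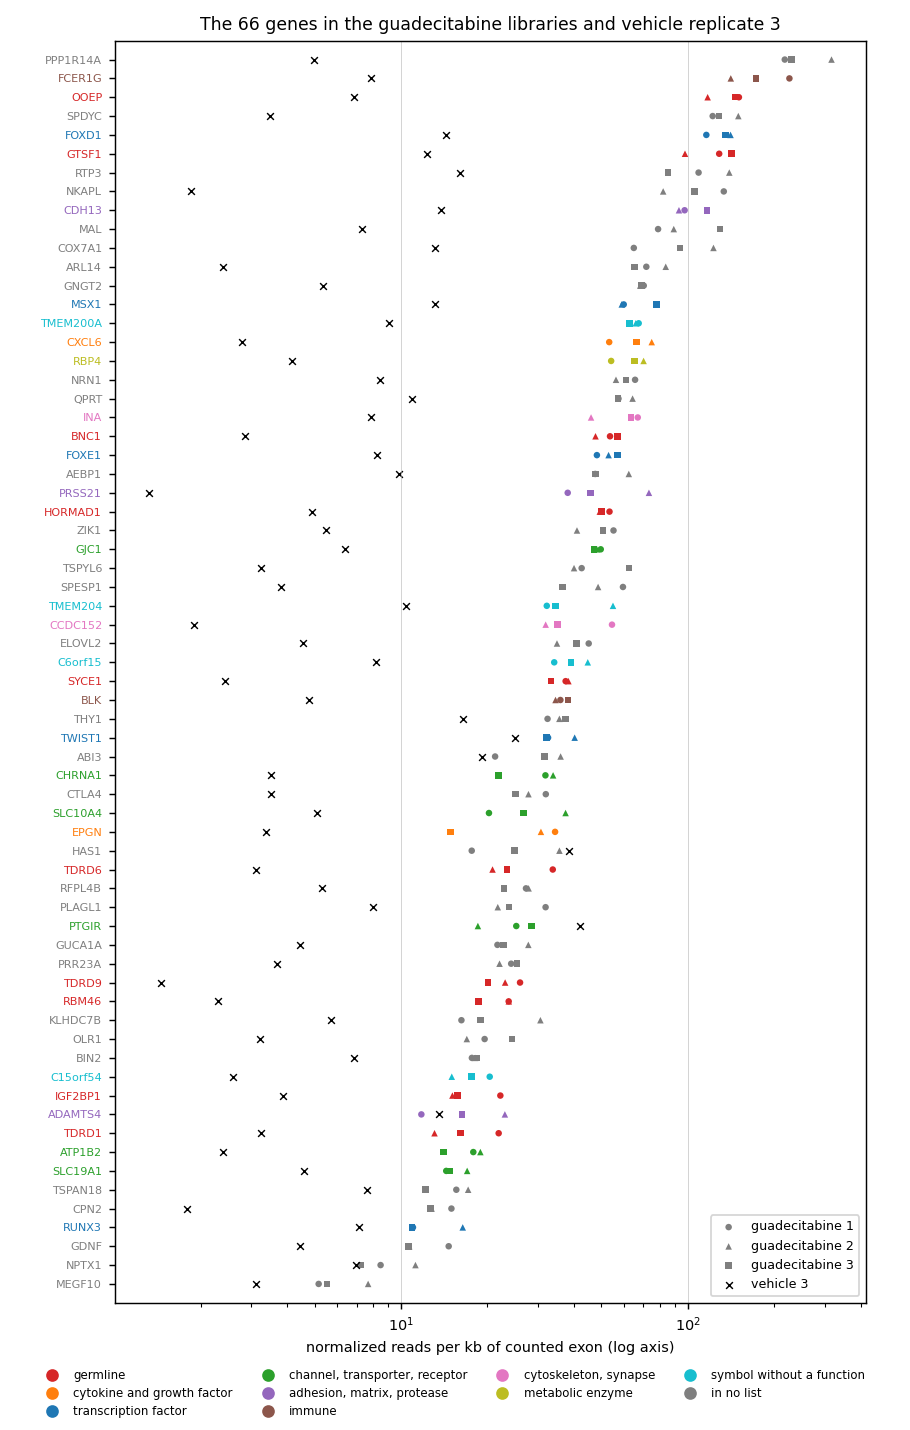
Each row is one of the 66 genes, ordered by its mean level, with normalized reads per kb on a logarithmic axis. Coloured symbols are the 3 guadecitabine libraries and crosses vehicle replicate 3. The crosses lie right of all coloured symbols for PTGIR and HAS1, among them for ADAMTS4 and left of them for the other genes.

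Germline genes formed the largest named group. Of the 97 silent autosomal genes on a list of meiosis, piRNA, sperm and oocyte genes, 10 were switched on, or 10.3%. Over all 2526 silent autosomal genes that were not left out by name, the 66 genes make up 2.61%. These genes are OOEP, GTSF1, BNC1, HORMAD1, SYCE1, TDRD6, TDRD9, RBM46, IGF2BP1 and TDRD1. The list was drawn up when earlier results of these data were known, and its share is given as a description. All 10 genes had a CPM under 2 in vehicle replicate 3, which by the choice is below each guadecitabine library.

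OOEP, which encodes a protein of the maternal complex under the surface of the oocyte, was the highest of them. It had 0, 0 and 6 reads with vehicle and 126, 39 and 98 with guadecitabine, and its level was 138 ± 18.1 normalized reads per kb (SD, n = 3). The CPM was at least 31.0-fold above the floor, and its mean was 19.6 times that of vehicle replicate 3. GTSF1, a partner of PIWI proteins in the silencing of transposons, had 0, 0 and 13 reads with vehicle and 129, 39 and 114 with guadecitabine, a level of 123 ± 22.6. BNC1, the zinc finger protein basonuclin of keratinocytes and germ cells, had 1, 0 and 17 reads with vehicle against 305, 108 and 260 with guadecitabine, a level of 52.7 ± 4.68. Each of these genes was under 2 CPM in vehicle replicate 3, and so by the choice below each guadecitabine library.

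HORMAD1, a protein of the meiotic chromosome axis, had 0, 0 and 12 reads with vehicle and 125, 46 and 94 with guadecitabine. Its level of 50.9 ± 2.14 normalized reads per kb (SD, n = 3) was among the least variable. The Tudor proteins TDRD1, TDRD6 and TDRD9, which assemble the piRNA machinery of male germ cells, had levels of 17 ± 4.48, 26.0 ± 6.87 and 23.1 ± 2.94. TDRD6 had 371, 91 and 206 reads after guadecitabine, more than OOEP, but also the longer transcript, so that its level per kb stayed below that of OOEP. SYCE1, of the central element of the synaptonemal complex, reached 36.4 ± 2.71, RBM46, an RNA-binding protein of meiosis, 22.0 ± 2.95, and IGF2BP1, an RNA-binding protein of the embryo, 17.7 ± 3.93. The germline group thus spanned the synaptonemal complex, the piRNA pathway and the oocyte rather than a single step of germ cell development.

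Further genes with a known place in the testis were outside that list. NKAPL had 0, 0 and 4 reads with vehicle and 274, 67 and 174 with guadecitabine, and its level was 107 ± 25.7 normalized reads per kb (SD, n = 3). Its mean CPM after guadecitabine was 56.1 times that of vehicle replicate 3, the largest such ratio of the 66 genes. SPESP1, a protein of the sperm head, had 0, 0 and 6 reads with vehicle and 89, 29 and 44 with guadecitabine. PRSS21, the testis serine protease testisin, had 0, 0 and 2 reads with vehicle and 55, 42 and 53 with guadecitabine. TSPYL6, of the family of testis-specific proteins first found on the Y chromosome, had 0, 0 and 13 reads with vehicle and 163, 61 and 191 with guadecitabine. These genes were also under 2 CPM in vehicle replicate 3, so that the choice placed the guadecitabine libraries above it.

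Developmental transcription factors contributed FOXD1, MSX1, FOXE1, TWIST1 and RUNX3, 5 of 140 silent genes on their list. FOXD1, a forkhead factor of the kidney stroma, had 0, 0 and 42 reads with vehicle and 325, 157 and 304 with guadecitabine. Its level was 131 ± 13 normalized reads per kb (SD, n = 3), and its CPM was at least 98.1-fold above the floor, the highest bound among the 34 genes without reads in vehicle replicates 1 and 2. Its mean CPM was 8.87 times that of vehicle replicate 3. MSX1, a homeobox factor of limb and tooth, reached 65.4 ± 10.6, and FOXE1, a forkhead factor of the thyroid, 52.7 ± 4.35. TWIST1, a basic helix-loop-helix factor of the mesenchyme, and RUNX3, a runt factor of T cells and neurons, were lower, at 35 ± 4.61 and 12.8 ± 3.14. TWIST1 was also the one closest to vehicle replicate 3, with 54 reads there and 67, 33 and 53 with guadecitabine, and its mean CPM was 1.36 times that of vehicle replicate 3.

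Among secreted ligands, CXCL6 and EPGN were switched on, 2 of 102 silent genes on the cytokine and growth factor list. CXCL6, a chemokine that attracts neutrophils, had 0, 0 and 6 reads with vehicle and 109, 61 and 109 with guadecitabine, a level of 64.8 ± 10.9 normalized reads per kb (SD, n = 3). EPGN, a ligand of the EGF receptor, had 1, 0 and 11 reads with vehicle and 107, 38 and 37 with guadecitabine. Its guadecitabine libraries spread more than those of any other of the 66 genes, from 2.09 to 5.00 CPM, with replicate 3 the low one. GDNF, a neurotrophic ligand in none of the lists, had 0, 0 and 22 reads with vehicle and 69, 20 and 40 with guadecitabine.

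Channels, transporters and receptors gave 6 of 406 silent genes, or 1.48%. GJC1, connexin 45 of gap junctions, had 1, 0 and 63 reads with vehicle and 469, 181 and 357 with guadecitabine. Its level was 48.4 ± 1.27 normalized reads per kb (SD, n = 3). CHRNA1 had 1, 1 and 9 reads against 78, 33 and 43, a level of 29.2 ± 6.42. SLC10A4, a transporter of synaptic vesicles, reached 28.1 ± 8.70, ATP1B2, a beta subunit of the sodium pump, 16.9 ± 2.55, and SLC19A1, the reduced folate carrier, 15.4 ± 1.42.

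PTGIR, the prostacyclin receptor, went another way. It had 0 and 0 reads in vehicle replicates 1 and 2, but 114 in vehicle replicate 3, against 65, 19 and 59 with guadecitabine. Vehicle replicate 3 was therefore higher in CPM, at 5.12, than each guadecitabine library.

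Adhesion and matrix genes gave CDH13, PRSS21 and ADAMTS4, 3 of 138 silent genes. CDH13, T-cadherin, a cadherin anchored in the membrane by a lipid, lies on chromosome 16 from 82660399 to 83830215. It had 1, 0 and 72 reads with vehicle and 484, 184 and 465 with guadecitabine, the highest mean CPM of the 66 genes at 23.3. Its level was 102 ± 12.6 normalized reads per kb (SD, n = 3). ADAMTS4, a protease that cleaves aggrecan, had 0, 1 and 76 reads with vehicle and 63, 49 and 70 with guadecitabine, so that vehicle replicate 3 fell within the range of the guadecitabine libraries. HAS1, a hyaluronan synthase outside the list, had 0 and 0 reads in vehicle replicates 1 and 2, 105 in vehicle replicate 3 and 46, 37 and 52 with guadecitabine. AEBP1, a matrix-associated protein of fibroblasts, had 0, 0 and 52 reads with vehicle and 240, 125 and 193 with guadecitabine. Its CPM was at least 71.0-fold above the floor, but its mean was only 5.18 times that of vehicle replicate 3.

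The immune list gave FCER1G and BLK, 2 of 123 silent genes. BLK, a tyrosine kinase of B cells, had 0, 1 and 16 reads with vehicle and 115, 44 and 98 with guadecitabine, a level of 36.2 ± 1.83 normalized reads per kb (SD, n = 3). CTLA4, the inhibitory receptor of T cells, was in none of the lists and had 0, 1 and 9 reads with vehicle and 78, 27 and 49 with guadecitabine. MAL, a membrane proteolipid of T cells and epithelia, had 0, 0 and 8 reads with vehicle and 82, 37 and 108 with guadecitabine. The CPM of these genes in vehicle replicate 3 was under 2, so that here too the choice fixed the order of the libraries.

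In the cytoskeleton and synapse list 2 of 133 silent genes were switched on, INA and CCDC152. INA, the neuronal intermediate filament protein internexin, had 1, 0 and 33 reads with vehicle and 267, 73 and 203 with guadecitabine. CCDC152, a coiled-coil protein, had 0, 1 and 5 reads against 137, 32 and 71. On the list of metabolic enzymes and carriers, RBP4 was the only member among 132 silent genes. It had 0, 0 and 5 reads with vehicle and 62, 32 and 60 with guadecitabine, a level of 63.1 ± 8.24 normalized reads per kb (SD, n = 3). That list goes by gene symbol and does not hold the enzyme genes QPRT, ELOVL2, HAS1 and COX7A1, which were also switched on.

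Genes whose symbols carry no function gave 4 of 173 silent genes. TMEM200A had 0, 0 and 35 reads with vehicle and 247, 96 and 184 with guadecitabine, and its level was 65.3 ± 2.45 normalized reads per kb (SD, n = 3). TMEM204, C6orf15 and C15orf54 reached 40.6 ± 12.4, 39.4 ± 5.29 and 17.7 ± 2.68.

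The other 31 genes belonged to none of the lists, and their levels ran from 6.12 to 255 normalized reads per kb. SPDYC, of the Speedy family that activates cyclin-dependent kinases, had 0, 1 and 4 reads with vehicle and 133, 65 and 112 with guadecitabine, a level of 133 ± 14.7 (SD, n = 3). RTP3 had 0, 1 and 17 reads against 110, 56 and 69, a level of 111 ± 27.2. COX7A1, the muscle form of a cytochrome c oxidase subunit, had 1, 1 and 13 reads with vehicle and 61, 46 and 71 with guadecitabine. ARL14, a small GTPase of vesicle transport, had 0, 0 and 4 reads with vehicle and 114, 53 and 83 with guadecitabine. QPRT, an enzyme of NAD synthesis from tryptophan, had 1, 1 and 22 reads with vehicle and 110, 49 and 88 with guadecitabine. ELOVL2, which lengthens polyunsaturated fatty acids, had 0, 0 and 24 reads with vehicle and 227, 70 and 165 with guadecitabine. These genes came from unrelated tissues and pathways.

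The guadecitabine libraries ranked the 66 genes alike. Across genes, which are not independent replicates, Spearman's rho of CPM was 0.781 between replicates 1 and 2, 0.872 between 1 and 3 and 0.856 between 2 and 3. The ratio of the highest to the lowest guadecitabine CPM had a median of 1.37, and was under 1.5 for 41 genes and over 2 for EPGN alone. HAS1 and ADAMTS4 followed EPGN, with ratios of 1.96 and 1.89. The smallest ratios were those of BIN2, at 1.02, GNGT2, at 1.06, and GJC1, at 1.09. The median coefficient of variation over the guadecitabine libraries was 15.8%, and in 4467 other genes of the same CPM range it was 15.9%. The highest library was replicate 1 for 26 genes, replicate 2 for 27 and replicate 3 for 13. Among the 4467 other genes, 51.4% were highest in replicate 1, 31.6% in replicate 2 and 17.1% in replicate 3.

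Near the limit, the 5 genes just inside had a lowest guadecitabine CPM of 2.16 (PTGIR), 2.15 (HAS1), 2.14 (CPN2), 2.09 (EPGN) and 2.03 (ATP1B2). Just outside were SLC17A7 at 1.97, TRIM43, BRDT and MYO18B at 1.93 and DDX4 at 1.92. BRDT and DDX4 are themselves germline genes, a testis bromodomain protein and the germ cell helicase VASA. They had 75, 17 and 43 reads and 48, 17 and 34 reads with guadecitabine. The limit thus passed through genes of the same kind and did not mark a gap in the values.

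Vehicle replicate 3, which the choice did not use, had reads of all 66 genes, from 2 for PRSS21 to 114 for PTGIR, with a median of 16.5. Its CPM was below each guadecitabine CPM for 62 genes, above each for PTGIR and HAS1 and within their range for ADAMTS4 and NPTX1. With TMM scaling NPTX1 was lower in vehicle replicate 3 than in each guadecitabine library. The CPM of vehicle replicate 3 was under 1 for 44 genes and at least 2 for 10. Since the choice required a CPM of at least 2 in each guadecitabine library, the order was open only for these 10 genes and fixed for the others. The mean guadecitabine CPM was a median of 6.99 times that of vehicle replicate 3, over ratios from 0.555 for PTGIR to 56.1 for NKAPL. These ratios rest on 1 vehicle library and have no replicate check. Reads of the 2572 silent genes that stayed below the minimum were as frequent in that library, with a median of 7.93 reads per kb against 6.73 for the 66 genes. The 5th to 95th percentiles of those silent genes were 3.38 and 23.6 reads per kb, and of the 66 genes 4 lay above and 10 below this range. The highest normalized reads per kb in vehicle replicate 3 were 42.2 for PTGIR, 38.4 for HAS1, 25 for TWIST1, 19.1 for ABI3 and 16.4 for THY1. The part of this library's reads in the levels of the 66 genes was not tested.

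**Figure D3:**
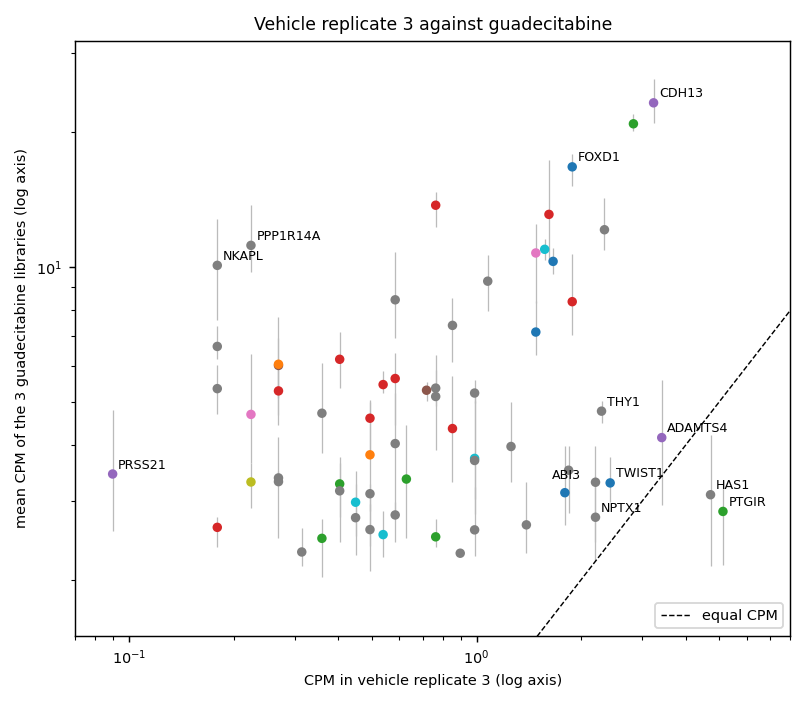
Each point is one of the 66 genes, coloured by group of genes as in the plot of levels, with its CPM in vehicle replicate 3 against the mean CPM of the 3 guadecitabine libraries, both on logarithmic axes; vertical lines span the lowest to the highest guadecitabine library. PTGIR, at 5.12 CPM in vehicle replicate 3, and HAS1 lie below the dashed line of equal CPM, and the other genes lie above it.

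The 66 genes were spread over 19 of the 22 autosomes, with none on chromosomes 13, 18 and 20. Chromosome 6 held 10, or 1.10% of its 912 genes, and chromosome 17 held 6, or 0.60% of its 1008 genes. All autosomes together held 66 among 16465 genes. Members lay within 100 kb of each other in only 2 places. FCER1G and ADAMTS4 are 16242 bp apart on chromosome 1, and GNGT2 and ABI3 overlap on chromosome 17, where GNGT2 is read from the minus and ABI3 from the plus strand.

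To see whether the surroundings of the 66 genes moved with them, the other genes within 100 kb were taken from a test over all genes. Of 13322 genes tested with edgeR's quasi-likelihood test, 19.3% were higher and 18.4% lower after guadecitabine at an adjusted p of 0.05. Of the 200 neighbours tested, 40 were higher, or 20%, and 36 lower, or 18%, which is close to the shares of all genes. The median log2 fold change was 0.0079 in the neighbours and 0.018 in all genes tested. Without vehicle replicate 3, 51 of 198 neighbours were higher, or 25.8%, against 22.6% of all genes. Without guadecitabine replicate 3, 26 of 201 were higher, or 12.9%, against 12.5%.

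Single neighbours did change with their member. CXCL1, a neutrophil chemokine 30632 bp from CXCL6, had 148, 141 and 238 reads with vehicle and 18081, 7804 and 16033 with guadecitabine, a log2 fold change of 6.62 (edgeR, adjusted p = 2.2e-08). CXCL8, the chemokine interleukin-8, on the other side of CXCL6, had 623, 598 and 1065 reads against 36447, 16403 and 32130, a log2 fold change of 5.54 (edgeR, adjusted p = 4.5e-08). DDX43, a helicase of the cancer/testis group 24770 bp from OOEP, had 1, 2 and 12 reads against 403, 110 and 312, a log2 fold change of 5.98 (edgeR, adjusted p = 1.7e-05). GPR84, a receptor for medium-chain fatty acids 91466 bp from GTSF1, had 0, 0 and 3 reads against 33, 13 and 28, a log2 fold change of 4.76 (edgeR, adjusted p = 0.0037). PLA2G7, a phospholipase whose end overlaps that of TDRD6, had 0, 0 and 10 reads against 56, 24 and 30, a log2 fold change of 3.81 (edgeR, adjusted p = 0.016). In all 5 of these genes each guadecitabine library was above each vehicle library in CPM, vehicle replicate 3 included. CXCL1 and CXCL8 were not silent with vehicle.

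Some members share exon sequence with a gene on the other strand or the same strand. The strand of the reads is not given in the sources used here, so that reads from such stretches cannot be assigned to one gene. By the GENCODE annotation, all exon bases of the nearest transcript of GUCA1A, which differs from the counted one, and 36.8% of those of RFPL4B lie in coding gene models without a symbol. Among overlaps with named genes, 61.4% of the exon bases of SYCE1 overlap CYP2E1 in GENCODE, although the counted transcripts lie 14784 bp apart. For CCDC152, 41.6% of the exon bases overlap the selenoprotein P gene SEPP1. SEPP1 had 3, 7 and 6 reads with vehicle and 0, 1 and 2 with guadecitabine, so that it did not share the pattern of CCDC152. CYP2E1, the ethanol-oxidising cytochrome, had a log2 fold change of -0.86 (edgeR, adjusted p = 0.28). NOX5, an NADPH oxidase that starts at the same base as SPESP1, had 683, 694 and 791 reads with vehicle and 107, 38 and 80 with guadecitabine. It fell by 3.01 on the log2 scale (edgeR, adjusted p = 6.9e-07), the opposite of SPESP1. IFT140, a ciliary transport gene, spans TMEM204, but the nearest GENCODE transcript of TMEM204 shares no exon bases with it. IFT140 had 384, 388 and 504 reads with vehicle and 107, 56 and 88 with guadecitabine. It fell by 2.03 on the log2 scale (edgeR, adjusted p = 1.5e-05). Of 65 members with an annotated transcript, 58 had at least 99% of their stretches of 50 exon bases at a single place in the genome, and the lowest share was 97.2%, in EPGN.

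Genes of the same lists outside the 66 were examined in the same test. List genes that met the reads limits but were left out, by name or by lying on chromosomes X and Y, were kept in these counts. Those just below the limit were kept too, so that the shares are not free of the choice. On the germline list 34 of 112 tested genes were higher and 12 lower, with a median log2 fold change of 0.31. On the cytokine and growth factor list 77 of 220 were higher and 42 lower, and on the immune list 74 of 222 were higher and 44 lower, with medians of 0.27 and 0.22. Transcription factors had 37 higher and 42 lower of 240, with a median of -0.07. Without vehicle replicate 3 the transcription factors had 75 higher and 47 lower, and the germline genes 54 higher and 14 lower. Without guadecitabine replicate 3, 23 transcription factors were higher. Channels and transporters had 112 higher and 117 lower of 555. Adhesion genes had 63 higher and 60 lower of 239, cytoskeleton genes 75 and 89 of 469, and enzyme genes 67 and 91 of 358. Among symbols without a function, 137 were higher and 119 lower of 757, and the counts of higher genes were 84 to 86 without vehicle replicate 1, vehicle replicate 2 or guadecitabine replicate 3. The counts of lower genes were 76 without vehicle replicate 1 and 70 without guadecitabine replicate 3. Set beside the 19.3% higher and 18.4% lower among all genes tested, the germline, cytokine, immune and adhesion shares of 30.4%, 35%, 33.3% and 26.4% stood above for genes that were higher. For genes that were lower, adhesion and enzyme genes stood above, at 25.1% and 25.4%, and germline genes below, at 10.7%.

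CpG content is a property of the DNA that the choice of the 66 genes did not use. RefSeq promoter sequences of 300 bases, 250 before and 50 after the start, were matched by symbol to 46 of the 66 genes. No entry was matched for ABI3, ADAMTS4, AEBP1, ARL14, BIN2, BLK, C15orf54, CDH13, COX7A1, GJC1, GNGT2, HORMAD1, IGF2BP1, NPTX1, OLR1, PTGIR, THY1, TMEM204, TSPAN18 and TWIST1. CpG density was expressed as the ratio of observed CpG to that expected from the C and G content.

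The median ratio was 0.74 in the 46 genes, 0.38 in 1812 silent genes that stayed below the minimum and 0.83 in 10434 other autosomal genes. Promoters with a ratio above 0.6 and a GC content above 50%, as in CpG islands, made up 26 of the 46, or 56.5%, with a 95% interval from 41.1% to 71.1% (exact binomial). They made up 34.7% in the silent genes below the minimum and 77.3% in the other autosomal genes. The interval treats genes as independent and covers counting error only. Of the silent genes with a promoter ratio under 0.2, 6 of 489 were members, or 1.23%. The share was 1.52% from 0.2 to 0.4, 2.18% from 0.4 to 0.6, 4.18% from 0.6 to 0.8 and 4% from 0.8. Genes left out by name count among these silent genes but not among the members. With them, 6 of 229 silent genes reached the minimum from 0.4 to 0.6, 14 of 311 from 0.6 to 0.8 and 19 of 375 from 0.8. The members thus stood between the silent genes below the minimum and the other autosomal genes in promoter CpG.

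**Figure D4:**
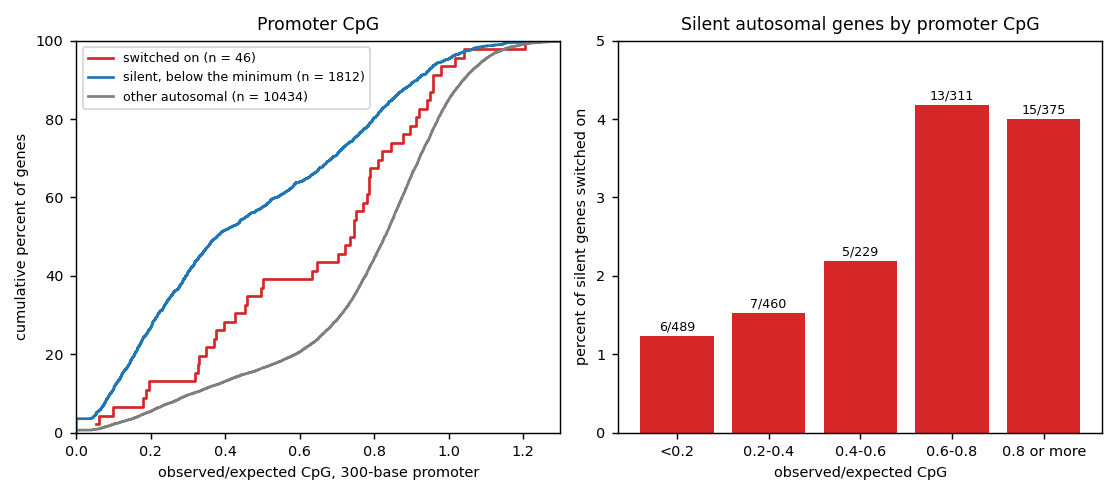
Left, cumulative percent of genes by the observed to expected CpG ratio of the 300-base promoter, for the genes switched on, silent genes below the minimum and other autosomal genes; the medians are 0.74, 0.38 and 0.83. Right, bars give the percent of silent autosomal genes that were among the 66, by the same ratio, with the number of members over silent genes above each bar, from 1.23% under 0.2 to 4% at 0.8 or more. Genes left out by name count among the silent genes but not among the members.

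The highest ratios were 1.21 in NRN1, a neuronal surface protein, 1.04 in BNC1 and 1.02 in ELOVL2, with RBP4 next at 0.98. The lowest were 0.052 in RTP3, 0.062 in GUCA1A, a calcium sensor of photoreceptors, and 0.098 in QPRT. The RefSeq promoters of NRN1 and GUCA1A were not found on GRCh37 near the counted start. In the window at the counted start NRN1 had 0.95, below ELOVL2 at 1.07 and BNC1 at 1.01, and GUCA1A had 0.051. Of 8 germline genes with an entry, 7 were like CpG islands, with a median of 0.82, and GTSF1, at 0.35, was not. Both cytokine genes had few CpG, with 0.38 in EPGN and 0.32 in CXCL6. RTP3, with almost no CpG in its promoter, was higher per kb than BNC1 and RBP4. PPP1R14A had 0.78 and FCER1G 0.37. The RefSeq start of PPP1R14A lies 217 bp inside the counted transcript and that of BNC1 52 bp inside, so that part of these windows lies after the counted start.

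Short motifs were searched on both strands of the 300 bases. The GC box GGGCGG was found in 33 of 46 promoters, or 71.7%, against 40.0% of the silent genes below the minimum, 69.1% of the other autosomal genes and 64.9% of all autosomal promoters. The ETS-type motif CGGAAG was found in 14, or 30.4%, against 9.77%, 31.1% and 28.0%. Both motifs contain a CpG, so that they follow CpG content in part by their letters. The TATA box TATAAA was found in 4, or 8.70%, against 17.3%, 6.08% and 7.75%, and the 4 genes were RBP4, SLC10A4, RFPL4B and EPGN. In the RBP4 sequence above it lies near the end, shortly before the start site. CACGTG was found in 2 promoters, TGACGTCA in 1 and TGANTCA in 2, against 8.94%, 2.85% and 5.12% of all autosomal promoters. A match is a description of these letters and not a bound site.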

How the data were processed

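The 3 vehicle and 3 guadecitabine RNA sequencing libraries of MDA-MB-231 were grouped by their labels. The authors prepared libraries with a TruSeq RNA kit, aligned reads to hg19 with STAR 2.3.1z and deposited raw exon counts per RefSeq transcript, counted with iRNA-seq, with the exon length. The deposited table also holds rlog values and fold changes on the log2 scale, a mean signal of normalized counts, a test statistic (a score) and p-values of the authors' DESeq2 comparison, which were not used. The study describes the libraries as independent experiments, and p-values measure the spread between these samples. The 66 genes and the gene lists were chosen with earlier results of these data known.

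CPM was the count over the column total. Levels used TMM factors and a mean total of 17911210 reads. For neighbours and list genes edgeR 4.0.16 under R 4.3.3 was used (TMM, filterByExpr with a minimum count of 10, quasi-likelihood test, Benjamini-Hochberg adjustment over the 13322 genes kept, threshold 0.05). All 66 genes passed this filter. The fit was first tested on simulated counts. DESeq2 1.42.0 served as an alternative. The 66 genes were not tested, since the choice used the contrast. Named were the 15 genes of highest level, the 4 highest of each list, those with the most and least variable guadecitabine libraries, the 5 on either side of the limit, those close to another member, the 5 highest in vehicle replicate 3, those of extreme promoter CpG and the 5 neighbours called higher with the largest change. AEBP1, BRDT, CTLA4, DDX4, ELOVL2, GDNF, IFT140, MAL, NKAPL, NOX5, SPESP1, TDRD6 and TSPYL6 are described further, in part after their values were seen.

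Overlaps came from GENCODE release 44 on GRCh37. Promoter sequences came from the RefSeq table on GRCh38.p14, of which 44 members' were found on GRCh37 by sequence, and 35 lay within 100 bp of the counted start. Stretches of 50 bases were matched with BLAST 2.17.0.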

Additional observations from a re-analysis of the deposited data

Results flagged for a closer look

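Vehicle replicate 3, which took no part in choosing the genes, held 1604 reads of the 66 genes, against 15 and 22 in vehicle replicates 1 and 2. In 2 of the 66 genes, PTGIR and HAS1, its CPM was above that of each guadecitabine library. Silent genes that stayed below the minimum had a median of 7.93 reads per kb in the same library, against 6.73 in the 66 genes, and the source of these reads was not tested.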

How the results depend on the processing

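The number of genes switched on depended on the limits. It was 34 with 0 reads in vehicle replicates 1 and 2, 94 with at most 3, 113 at a CPM of at least 1 and 21 at a CPM of at least 5, and 0 with at most 1 read in vehicle replicate 3 as well, where 44 remained with a CPM under 1 there. CPM on TMM or DESeq2 scaling gave the same 66 genes, and leaving out 1 library gave 68 to 83. Promoters like CpG islands made up 49.3% to 64.0% under the other limits and windows, and 80.0% at a CPM of at least 5. The window at the counted start, the neighbours without overlap (39) and those without CXC chemokines (38) were added after seeing the data. Neighbours called higher were 22 within 50 kb and 75 within 200 kb, at 19% and 22.5% of those tested.

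With 1 library left out, genes called higher ranged from 1706 to 3002, genes called lower from 1629 to 2575, neighbours called higher from 26 to 51, and list genes outside the members from 478 to 934 higher and from 424 to 657 lower. Without guadecitabine replicate 3 these counts were lowest, at 1706, 1629 and 26, and the cause was not tested. The Wald test of DESeq2, its size factors, library totals and no filter kept each count within 1.5 times. The shared replicate numbers were not taken as pairs in the main test. Deviations from the group mean in same-numbered libraries had correlations of -0.05, 0.049 and -0.037. Because vehicle replicate 3 stood apart from the other vehicle libraries, these values cannot decide whether the samples were paired. With the replicate number as a block, 2424 genes were higher, 2230 lower and 38 neighbours higher. In 75 recomputed levels of the 15 genes of highest level, all stayed within 1 SD, but this is no check of stability. With 1 guadecitabine library left out, the mean of the remaining libraries cannot lie further than 1 SD from the mean of all. The other recomputed levels only changed the scaling of the libraries. At 18 reads for a CPM of 2, guadecitabine replicate 2 limited the precision of the lowest members.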
